A study of Danio rerio with 19 samples.

Results

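The egg coat genes of the zebrafish were followed through 4 RNA libraries. They are the genes whose names start with zp2, zp3 or zpcx. The choice used names only, but it was made with earlier results of these data known. Of 14244 gene names 14 qualified: 7 starting with zp2, 6 starting with zp3, and zpcx. Each of the 14 had 1 entry, and none shared all 4 values with another name. The entry named zp2 cannot be tied to 1 current gene, since RefSeq gives zp2 as an older name of 4 genes (zp2.2, zp2.3, zp2.5 and zp2.6). The name zp3.2 is likewise both a current symbol and an older name of zp3.

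Zona pellucida (ZP) proteins are secreted glycoproteins that polymerise through a shared ZP domain into the extracellular coat of the egg. ZP2 and ZP3 are among the structural subunits of this coat in mammals, and fish build their egg envelope, which becomes the chorion, from related families with many gene copies. In zebrafish the genes are known for expression in growing oocytes of the ovary, before the egg is shed.

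The series holds 19 samples of the Tubingen strain, 1 per group, and 4 of them are RNA libraries made by poly-A selection: sperm, egg, 1k-cell embryos (blastulae), and germ ring embryos (gastrulation starting). The labels name no treatment or mutation for any of the 4, and give neither the age of the parents nor the number of animals or embryos pooled. For the bisulfite samples the labels state that sperm was released by breaking up the testis and that unfertilized eggs were pressed from females; for the RNA samples of gametes no collection step is given. With no replicate in any group, the differences given here set 1 library against another and carry no test. Intervals cover counting error only, since reads without molecular identifiers are not independent molecules.

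The libraries held from 9241829 reads (egg) to 24256918 (1k-cell), and the values are read counts scaled by the authors to normalized counts, in which 1 read is worth from 0.951 (1k-cell) to 1.98 (egg). At a normalized count of 10 or more, 13 of the 14 genes were present in all 4 libraries and all 14 in at least 1. Of the other names among the 14244, 8855 reached it in all 4 libraries and 12667 in at least 1. Lengths of the transcripts counted were not used here, so levels are compared between libraries and not between genes. The library labelled sperm held markers of spermatogenesis: 14 of 15 listed spermatocyte and spermatid genes were found. All 14 were at least 2-fold higher than in egg, against 61.3% of the 12443 genes compared. Their summed normalized count was 139740 in sperm and 276 in egg.

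The library labelled sperm also held reads of markers of other cells, at unlike levels. Of 6 oocyte markers 4 were found, with a summed normalized count of 41111 in sperm, 2261 in egg, 5863 in 1k-cell embryos and 2700 in germ ring embryos; zar1 made up 36298 of the sperm sum, and figla was at 0. The 10 ovarian follicle markers found of 12 summed to 1395 in sperm and 11.9 in egg. All 10 were at least 2-fold higher in sperm than in egg as deposited, against 61.3% of the 12443 genes compared. Most of their sperm sum came from gsdf (947), a gene that Sertoli cells also express, and hsd17b1 had 147. Such a gene does not tell ovary from testis, and which other markers of this list testis cells express was not examined. The follicle genes cyp19a1a and foxl2 were at 25.8 and 10.9 in sperm. Of the 10 follicle markers 8 had no read in egg, among them hsd17b1, cyp19a1a and foxl2. The share of all genes with no read in egg, the library with the fewest reads, was not counted. Of 14244 names 9640 reached 10 in egg and 12319 in sperm. The 11 testis somatic markers, all found, summed to 23342 in sperm and 16904 in egg, with 9689 for the Leydig cell gene insl3 in sperm. Of these 11 markers 6 had no read in egg, and most of the egg sum came from the steroid synthesis genes cyp11a1 (3837 in sperm and 13986 in egg) and cyp17a1 (3679 in sperm and 2709 in egg). The 11 liver markers found of 12 summed to 5140 in sperm and 13.9 in egg. The 6 red blood cell markers found of 8 summed to 83405 in sperm and 59.5 in egg. Of these, ba1 and ba2 share all 4 values, so that their 23288 in sperm enters the sum 2 times. The liver and red blood cell markers found were also all at least 2-fold higher in sperm. So were 9 of the 11 testis somatic markers, with 1 lower, and 2 of the 3 oocyte markers compared. The median in sperm was 342 for all genes, 2407 for the oocyte, 49.7 for the follicle and 982 for the testis somatic markers. It was 303 for the liver markers and 12218 for the 6 red blood cell markers with ba1 and ba2 counted separately. That median lies between their 23288 and the 1148 of hbaa2, and it counts the shared values 2 times. The part that other cells play in the egg coat values of the sperm library was not tested.

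Every egg coat gene had its highest level in the library labelled sperm. How many of all genes have their highest level there was not counted. As deposited, the median gene was at 342 in sperm, 69.5 in egg, 214 in 1k-cell embryos and 172 in germ ring embryos. The gene zp3b, of the ZP3 family, reached 58594 normalized counts in sperm, 1137 in egg, 2807 in 1k-cell embryos and 2255 in germ ring embryos. The gene zp2.2 had 20360 in sperm, 61.5 in egg, 128 in 1k-cell embryos and 104 in germ ring embryos. The gene zp2.5 had 19976 in sperm, 173 in egg, 162 in 1k-cell embryos and 131 in germ ring embryos. In all 3 the sperm library stood far above the other libraries, which lay within a few fold of each other.

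**Figure D1:**
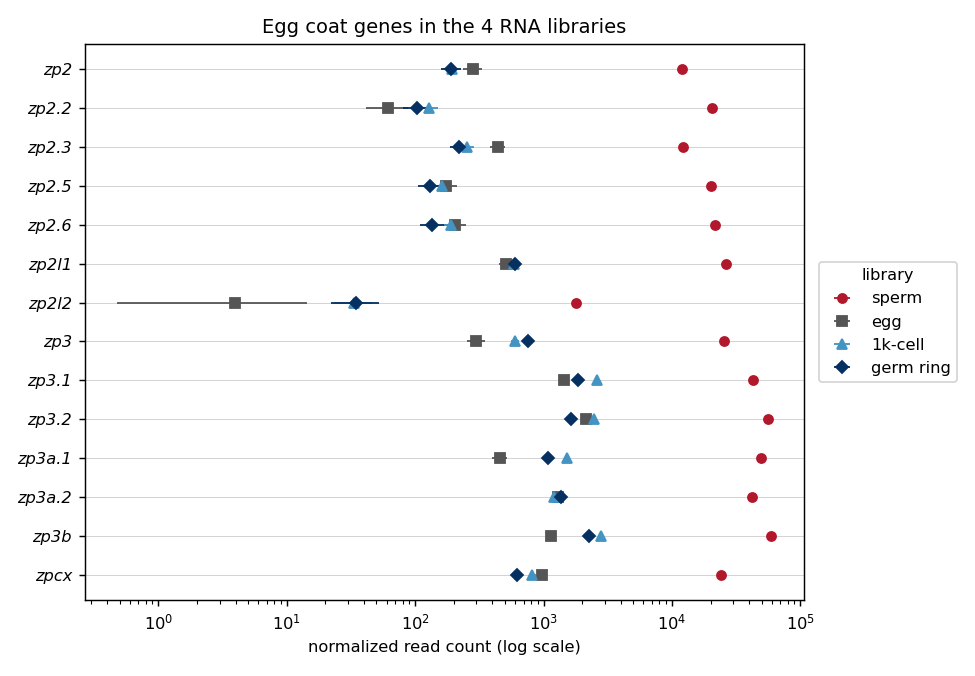
Normalized read count (log scale, horizontal axis) of the 14 egg coat genes (rows) in the 4 RNA libraries (symbols), with exact 95% counting intervals as bars. The sperm points lie to the right of every other point of the same gene, and only zp2l2, with 2 reads in egg, has a wide interval.

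The other members showed the same separation. The lowest of the 14 in sperm was zp2l2, with 1791 in sperm, 3.97 in egg, 33.3 in 1k-cell embryos and 34.7 in germ ring embryos. Its egg value is 2 reads, which leaves a counting interval of 0.481 to 14.3 normalized counts. The 14 genes had a median normalized count of 24677 in sperm, 449 in egg, 594 in 1k-cell embryos and 609 in germ ring embryos. Together they took 1.96% of all reads in sperm, 0.0514% in egg, 0.0588% in 1k-cell embryos and 0.0494% in germ ring embryos. These shares divide by each library's total reads, as equal-total scaling does, and so depend on what else each library holds. Their exact (Clopper-Pearson) 95% intervals run from 1.96% to 1.97% in sperm and from 0.0500% to 0.0529% in egg. In RNA from whole samples, fewer cells of a type and less RNA per cell cannot be told apart.

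After sperm, the order of the libraries differed between genes. As deposited, 5 members had egg second, followed by the 1k-cell and germ ring stages: zp2, zp2.3, zp2.5, zp2.6 and zpcx. In the other 9 an embryo stage came second. This order depends on the scaling, as checked after the data were seen: under median-of-ratios or upper-quartile scaling egg was second in 10 members and an embryo stage in 4 (zp2l2, zp3, zp3a.1 and zp3b), and under equal-total scaling the counts were 8 and 6, with sperm first for all 14 each time. Steps between libraries sorted by level were then set against counting error, for the 14 members only and not for all genes. As deposited, the step between sperm and the second library exceeded counting error in all 14. The step between the second and the third was within it in 6 and the step between the third and the fourth in 5. For zp2l1, for example, the germ ring value of 598 and the 1k-cell value of 588 could not be told apart by counting, and neither could the 1k-cell value and the egg value of 512. For zp3a.2 the germ ring value of 1359 could not be told apart from the egg value of 1298, nor the egg value from the 1k-cell value of 1208.

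The comparison of sperm with egg sets the libraries labelled sperm and egg against each other. Each ratio was taken on the log2 scale after adding 1 to both normalized values, for genes at 10 or more in either, and a gene counts as higher or lower from 2-fold. All 14 egg coat genes were at least 2-fold higher in sperm, against 61.3% of the 12443 genes compared. The median log2 ratio was 5.69 for the egg coat genes and 1.80 for all genes, and it ranged from 4.63 (zpcx) to 8.49 (zp2l2). Under median-of-ratios scaling all 14 were still at least 2-fold higher, with medians of 4.42 for the egg coat genes and 0.49 for all genes; of all genes 43.0% were then higher and 29.7% lower, against 61.3% and 14.3% as deposited. At a larger fold, all 14 were at least 16-fold higher in sperm as deposited, as were 22.3% of all genes. Under median-of-ratios or upper-quartile scaling 9 of the 14 were. The share of all genes at this fold was not computed under those scalings.

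**Figure D2:**
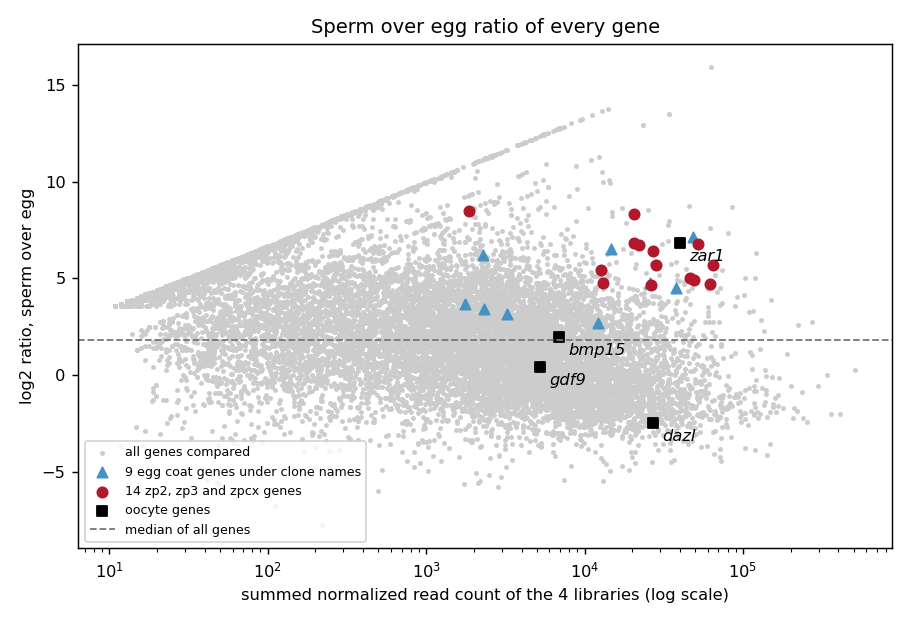
Log2 ratio of sperm over egg (vertical axis) against the summed normalized read count of the 4 libraries (log scale, horizontal axis) for every gene compared. The 14 egg coat genes (circles) lie between 4.63 and 8.49, all above the median of all genes at 1.80, and the 9 egg coat genes listed under clone names (triangles) lie between 2.67 and 7.12.

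The size of the difference varied among the members by more than counting error. The sperm to egg ratio of zp2l2 was 451 but rests on 2 reads in egg (95% counting interval 125 to 3729). That of zp2.2 was 331, with an interval of 233 to 487. Next came zp2.5 at 116, zp3a.1 at 108 and zp2.6 at 105. The ratio was 85.1 for zp3, 51.5 for both zp2l1 and zp3b, and 43.1 for zp2. It was lowest for zp3a.2 (32.6), zp3.1 (29.6), zp2.3 (27.5), zp3.2 (25.9) and zpcx (24.8, interval 22.6 to 27.1). Of the 5 highest ratios 4 belonged to ZP2 names, and the 5 lowest included names of both families and zpcx.

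Several of these genes lie next to each other in the genome, as judged from the RefSeq annotation of another build (GRCz12tu) that was used here for names and neighbours only. The genes zp2.2, zp2.3, zp2.6, zp2.1 and zp2.5 follow each other with 1 other protein-coding gene among them, zp3.1, zp3 and zp3.2 follow each other with none between, and so do zp3a.2 and zp3a.1. No entry was found for zp2.1. How the authors' counting treated reads that fit several near-identical copies is not given in the sources used here, so values of neighbouring copies may be uncertain. That reads were shared among copies was not tested.

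Neighbours did not all have the same profile, and the ratio of 2 genes' ratios needs no scaling between libraries. The sperm to egg ratio of zp2.2 was 12.0 times that of its neighbour zp2.3 (95% counting interval 8.23 to 18.1). That of zp3a.1 was 3.32 times that of zp3a.2 (2.85 to 3.88), and that of zp3 was 2.87 times that of zp3.1 (2.40 to 3.45). By contrast zp2.5 and zp2.6 had a ratio of 1.1 (0.816 to 1.48), so that a difference between them was not detectable at this depth. They were also the closest pair of the 14 over the 4 libraries, at a distance of 0.16 between their centred log2 profiles.

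The make-up of the egg coat reads differed between libraries in the same scaling-free way. The names starting with zp3 held 66.5% of the 14 genes' reads in sperm, 71.9% in egg, 82.5% in 1k-cell embryos and 81.5% in germ ring embryos. The names starting with zp2 held 27.7% in sperm, 17.8% in egg, 11.4% in 1k-cell embryos and 12.9% in germ ring embryos. The neighbours zp2.2, zp2.3, zp2.5 and zp2.6 together held 18.0% in sperm, 9.34% in egg, 5.41% in 1k-cell embryos and 5.39% in germ ring embryos. The interval was 8.53% to 10.2% in egg and 5.05% to 5.80% in 1k-cell embryos, so the shares of these libraries did not overlap within counting error.

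Single genes differed in direction within the pool. The share of zp2.2 was 4.94% in sperm and 0.652% in egg, and that of zp2.3 was 2.95% in sperm and 4.69% in egg. The gene zp3a.1 held 11.9% in sperm, 4.82% in egg, 11.2% in 1k-cell embryos and 9.85% in germ ring embryos, while its neighbour zp3a.2 held 10.3%, 13.8%, 8.91% and 12.4% in the same libraries. The gene zp3b held 14.2% in sperm, 12.1% in egg, 20.7% in 1k-cell embryos and 20.5% in germ ring embryos. Both embryo libraries thus gave zp3b a similar share, above that in the libraries labelled sperm and egg.

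**Figure D3:**
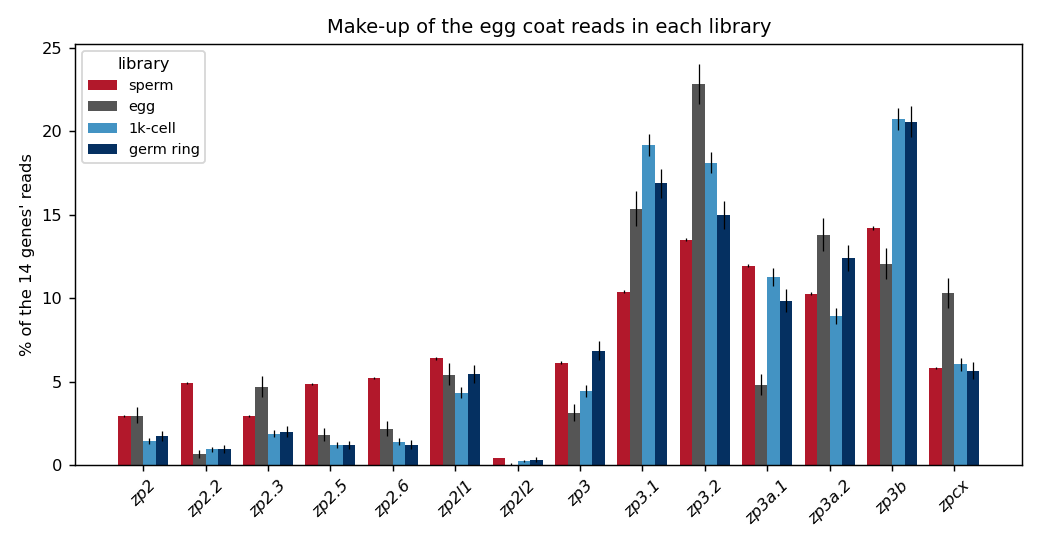
Share of the 14 genes' reads (vertical axis, %) taken by each gene in the 4 RNA libraries (bars, from left to right sperm, egg, 1k-cell and germ ring), with exact 95% counting intervals. The zp2.2, zp2.5 and zp2.6 bars are highest in sperm, and zp3b has the same height in both embryo libraries (20.7% and 20.5%).

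Across the 14 genes the rank order of levels was most alike in the germ ring and 1k-cell libraries (Spearman's rho 0.99). It was 0.92 between the 1k-cell stage and egg, 0.92 between the germ ring stage and egg, and 0.90 between the 1k-cell stage and sperm. Between egg and sperm it was 0.81, the lowest of the 6 pairs. These are descriptions over 14 genes that share libraries, and transcript length, which is the same in each library, contributes to all of them.

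Setting 1k-cell embryos against egg covers cleavage, when the embryo uses RNA from the egg. As deposited, 5 of 14 egg coat genes were at least 2-fold higher in 1k-cell embryos and none was lower, against 54.7% of 10685 genes higher and 12.5% lower; median-of-ratios scaling gave 1 higher and 8 lower, against 29.8% and 33.8% of all genes. Relative to the median of all genes, which was 1.24 on the log2 scale as deposited and -0.14 under median-of-ratios scaling, 11 of the 14 lay below it; a scaling moves the members and this median together, so that the position hardly depends on it. The members' median log2 ratio was 0.19 as deposited, or -1.05 relative to all genes.

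The 3 members above the median of all genes were zp2l2, zp3a.1 and zp3b. The gene zp3a.1 had 1525 in 1k-cell embryos and 454 in egg, which is 1.74 on the log2 scale and 0.50 above the median of all genes. For zp3b, with 2807 in 1k-cell embryos and 1137 in egg, the relative value was 0.06. That of zp2l2 was 1.54, with 35 reads in 1k-cell embryos and 2 in egg. The lowest relative values belonged to zp2.3 (-2.04; 255 in 1k-cell embryos and 443 in egg), zp2 (-1.76) and zpcx (-1.49).

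Neighbours differed here too, again without any scaling. The 1k-cell to egg ratio of zp3a.1 was 3.60 times that of zp3a.2 (95% counting interval 3.04 to 4.28), and that of zp2.2 was 3.62 times that of zp2.3 (2.33 to 5.76). For zp3 and zp3.1 the factor was 1.13 (0.922 to 1.38), which counting error covers. Both zp3a.1 and zp2.2 held a smaller share of the egg coat reads in egg than in any other library, though for zp2.2 the intervals of egg and both embryo libraries overlap.

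**Figure D4:**
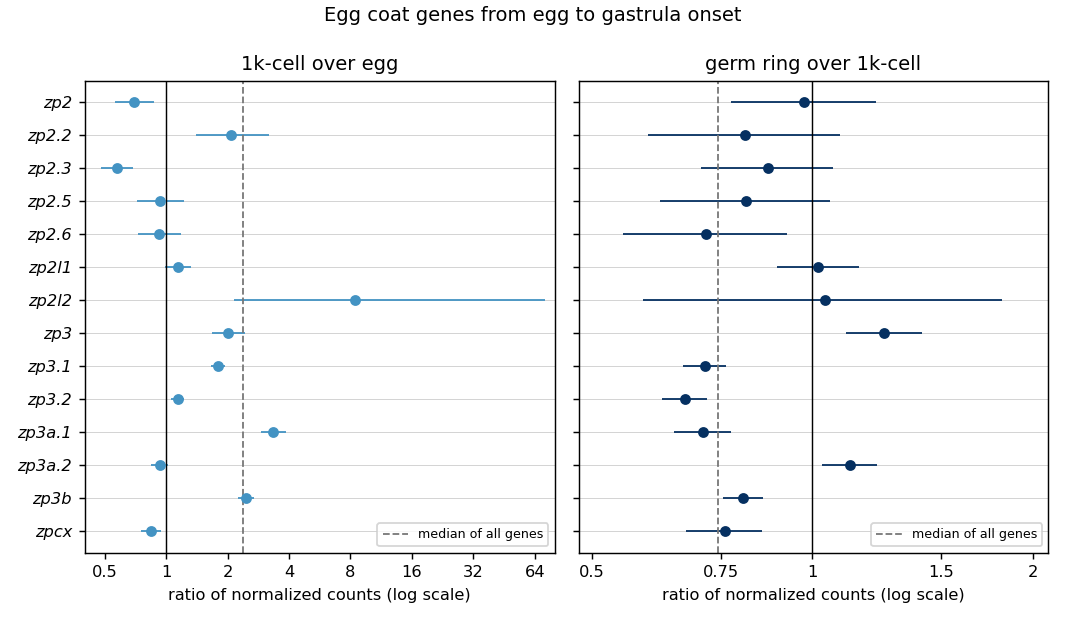
Ratio of normalized counts (log scale) in 1k-cell embryos over egg (left) and in germ ring embryos over the 1k-cell stage (right) for the 14 genes (rows), with exact 95% counting intervals; the dashed line is the median of all genes and the solid line a ratio of 1. On the left 11 genes lie left of the dashed line, while the position against the solid line depends on the scaling; on the right all genes are within 2-fold.

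From the 1k-cell stage to the germ ring stage, when the embryo's own genome is active, the egg coat genes stayed within 2-fold. None of the 14 was 2-fold higher or lower in germ ring embryos, against 16.0% of 10917 genes higher and 34.2% lower, and the same was found under the other 3 scalings. The log2 ratio ranged from -0.58 (zp3.2; 1644 in germ ring embryos and 2453 in 1k-cell embryos) to 0.33 (zp3; 753 and 601 in the same order), with a median of -0.30 against -0.43 for all genes. Relative to the median of all genes 10 members lay above and 4 below: zp2.6, zp3.1, zp3.2 and zp3a.1. The neighbours zp3 and zp3.2 differed by a factor of 1.87 (95% counting interval 1.63 to 2.15).

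Set against egg, the germ ring library had 3 of 14 members at least 2-fold higher and none lower, against 48.1% of 10971 genes higher and 19.8% lower; median-of-ratios scaling gave 1 higher and 6 lower, against 34.7% and 32.1% of all genes. The 3 were zp2l2 (34.7 in germ ring embryos and 3.97 in egg), zp3 (753 and 298) and zp3a.1 (1082 and 454). Just inside the cutoff lay zp2.3 on the lower side (log2 ratio -0.996) and zp3b on the higher side (0.987). In the same comparison 10 of the 14 lay below the median of all genes. This comparison shares the egg library with the one of the 1k-cell stage and adds no independent evidence.

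Further egg coat genes were listed under clone names and are no members by name. RefSeq holds 24 symbols of the zp and zpax families, of which 9 beyond the members were found under an older name, a set collected by name after the files had been opened. All 9 were at least 2-fold higher in sperm than in egg as deposited, against 61.3% of the 12443 genes compared. Their log2 ratios ran from 2.67 to 7.12 around a median of 4.48, against a median of 1.80 for all genes. The gene zp3e (listed as zgc:171779) had 45273 in sperm and 324 in egg, 140-fold higher, and zp3f.1 (listed as si:ch211-14a17.7) had 13505 in sperm and 147 in egg, 92.0-fold higher. At the other end, zp3d.1 (listed as zgc:66432) had 4573 in sperm, 718 in egg, 4501 in 1k-cell embryos and 2403 in germ ring embryos. Its sperm and 1k-cell values were thus close as deposited, unlike those of any of the 14.

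In the embryo the relatives and the 14 had different medians, while single genes overlapped. The log2 ratio of 1k-cell embryos over egg ran from -0.96 to 3.15 in the 9 and from -0.79 to 2.79 in the 14. As deposited, 7 of the 9 were at least 2-fold higher in 1k-cell embryos than in egg, against 54.7% of all genes, and their median of 1.85 on the log2 scale compares with 1.24 for all genes and 0.19 for the 14. The gene zp3d.2 (listed as si:ch211-225p5.3) had 37.7 in germ ring embryos and 237 in 1k-cell embryos, 6.29-fold lower, and zpax2 (listed as si:ch211-223m11.2) had 342 in germ ring embryos and 1003 in 1k-cell embryos. Together with zpd, 3 of the 9 were at least 2-fold lower in germ ring embryos as deposited, a share close to the 34.2% of all genes, against none of the 14. No test of this difference can be made with single libraries.

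Genes known to act in oocytes did not all follow the egg coat genes. Of 19 listed oocyte regulators and secreted factors 12 were found and 11 compared. As deposited, 3 were at least 2-fold higher and 1 lower in sperm than in egg, against 61.3% and 14.3% of all genes. Their median on the log2 scale was -0.07 as deposited, below the 1.80 of all genes. Counts and ratios of this list were not computed under the other scalings. The gene zar1, an RNA-binding maternal-effect factor of the oocyte, had 36298 in sperm and 322 in egg, 113-fold higher. The oocyte transcription factor gene lhx8a was 5.22-fold higher (1182 and 226), and bmp15, an oocyte growth factor, 3.89-fold (3379 and 869). The related growth factor gdf9 had 1435 in sperm and 1070 in egg, a ratio of 1.34 as deposited. The germ cell gene dazl was lower in sperm, with 3889 in sperm and 21621 in egg, and gdf3 (listed as dvr1) had 22838 in sperm and 36995 in egg. The gene figla, a transcription factor that drives zona pellucida genes in mouse oocytes, is listed at 0 in all 4 libraries. No entry was found for nobox or buc.

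Genes of the egg surface and of coat processing, a further list, showed no common direction. Of 18 listed genes 10 were found and 9 compared, of which 5 were at least 2-fold higher and 1 lower in sperm than in egg as deposited, close to the 61.3% and 14.3% of all genes. The highest ratios after the pseudocount was added belonged to mpx, a neutrophil peroxidase gene (566 in sperm and 13.9 in egg), to tgm2a (listed as tgm2; 26.8 in sperm against no egg read, so at least 4.50-fold higher taking 3 reads as the floor) and to f13a1b (listed as f13a1; 445 and 37.7), both of the transglutaminase family; the place of tgm2a rests on the pseudocount. The tetraspanin gene cd9b, whose mouse relative acts in the fusion of egg and sperm, had 1902 in sperm and 6867 in egg, and the protease gene mmp14a had 104 in sperm and 163 in egg. No entry was found for astl, the egg protease gene that acts on the coat in mammals, or for bncr, the egg surface gene of sperm entry in zebrafish.

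The genes with the profile closest to the egg coat genes were sought over the 4 libraries by the distance between centred log2 profiles. Among 12667 other genes at 10 or more in any library the 8 closest, ctsbb, si:ch211-199m3.1, c1qtnf9, pkm2b, zgc:158845, akr1a1a, si:ch73-252g14.4 and zgc:91968, all had 45.7 to 47.7 in sperm and no read in the other libraries. Such a profile is set by the pseudocount, and none of the 8 remained with a pseudocount of 0.1 or 5. A second search, added after the data were seen, took the 8855 other genes at 10 or more in every library. Its target was the median profile of the 13 members within that limit, so without zp2l2. The closest was tmem218 (listed as zgc:63675), with 1901 in sperm, 39.7 in egg, 39.9 in 1k-cell embryos and 33.1 in germ ring embryos, at a distance of 0.22. It was followed by the axonemal dynein light chain gene dnal1 (listed as zgc:92542; distance 0.51), the DNA polymerase gene poln (0.51), zgc:152652 (0.52), zgc:171750 (0.60), brf1b (0.67), hsbp1a (listed as zgc:113055; 0.69) and the meiosis gene mei4 (listed as si:ch211-241p10.1; 0.69). Among the 14 themselves zp2l1 was closest to the median profile of all 14 (0.13) and zp2l2 farthest from it (2.33).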

How the data were processed

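RNA was measured by sequencing of poly-A selected libraries in 4 of the 19 samples, 1 per group. The deposited tables hold a normalized signal per gene, made by the authors by scaling reads per gene with TMM, per the file headers; the submitters' processing notes name the Zv9 (danRer7) build, BWA 0.6.1-r104 and edgeR. Which counting tool, annotation or filters were used is not given in the sources used here. Every deposited value is a whole multiple of 1 step per library within 0.01 reads, for 100% of values, so read counts were recovered; the sperm step of 0.993 is too close to 1 for an independent check of that library, whose reads and intervals rest on this step; 3 reads are worth 2.98 (sperm), 5.95 (egg), 2.85 (1k-cell) and 4.52 (germ ring) normalized counts. Libraries held 21138688, 9241829, 24256918 and 14753999 reads, in the same order.

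Each table held 15328 entries for 14244 names; the entry with the highest sum was used for the 718 repeated names. Ratios used a pseudocount of 1, a floor of 10 in either library and a cutoff of 2-fold. Counting intervals are exact 95% intervals (Clopper-Pearson for ratios and shares, Poisson for levels, conditional odds ratio for pairs of genes; scipy 1.17.1). No test was run, since no group has a replicate. Groups came from sample titles. The script for ratios was tested on simulated data.

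The members and gene lists were chosen with earlier results of these data known. Genes named were all members; of each list up to 3 with the highest and 2 with the lowest sperm over egg ratio, clone names left out; the 8 closest profiles; and figla, gdf9, bmp15, zar1, nobox, buc, astl, vtg1 and bncr. Further genes named from the marker lists, and the relatives under clone names, were chosen after their values were seen. List genes were matched by name or by an unambiguous older name in the RefSeq table. Lengths per gene and sequences were not used here, so the planned levels per coding length and sequence comparison were not made. The 4 lists of hMeDIP regions, the bisulfite and the TAB samples were not analysed here.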

Additional observations from a re-analysis of the deposited data

How the results depend on the processing

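With single libraries no setting can show the spread between animals. The sperm over egg direction of the 14 genes was the same under the 3 other scalings. The rest of the 10 alternatives (pseudocount, floor, cutoff, repeated or shared names) could not turn it. The median log2 ratio of sperm over egg, 5.69 as deposited, was 4.42 under median-of-ratios, 4.62 under upper-quartile and 5.49 under equal-total scaling. For the 1k-cell stage over egg the median of 0.19 was -1.09, -1.15 and -0.14 under these 3 scalings. Members higher were 1, 1 and 2 (5 as deposited), and members lower 8, 8 and 1 (none as deposited). Of all genes 29.8%, 28.8% and 47.9% were higher (54.7% as deposited) and 33.8%, 35.1% and 17.3% lower (12.5% as deposited). A 4-fold cutoff left 1 member higher, and the share of all genes at that cutoff was not computed. Of the single genes in this comparison, zp2.2 turned to -0.22 and zp3 to -0.27 with median-of-ratios factors, while upper-quartile factors gave -0.28 for zp2.2, -0.33 for zp3 and -0.040 for zp3b. Members within 2-fold of egg also changed sign: zp3.1 (0.84 as deposited), zp2l1 (0.20) and zp3.2 (0.19) were at -0.44, -1.08 and -1.09 with median-of-ratios and at -0.50, -1.14 and -1.15 with upper-quartile factors. For the germ ring over the 1k-cell stage the median of -0.30 was 0.22 under both median-of-ratios (0.216) and upper-quartile scaling (0.217). For the germ ring over egg the median of 0.14 was -0.62, -0.68 and -0.13 under the 3 scalings. Members higher were 1, 1 and 2 (3 as deposited), and members lower 6, 6 and 1 (none as deposited). Of all genes 34.7%, 33.9% and 43.0% were higher (48.1% as deposited) and 32.1%, 33.0% and 23.4% lower (19.8% as deposited). A 4-fold cutoff left 1 member higher, again without a share of all genes. These shifts follow from the scaling factors, which move all genes of a library together; the order of the members by ratio does not depend on them.

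Of the 8 closest profiles, 0 remained under a pseudocount of 0.1 or 5, a floor of 50, median-of-ratios or upper-quartile scaling, or the added limit of 10 in every library. With that limit all 8 remained under a pseudocount of 0.1 and the 3 scalings, 5 under a pseudocount of 5 and 4 with a floor of 50. Pseudocounts, no floor, the mean of repeated entries and counting shared values once gave the same counts of members. The last 2 could not differ, since no member was repeated or shared all 4 values. A floor of 50 only dropped zp2l2 from the embryo comparisons (4 and 2 higher than egg in 1k-cell and germ ring embryos). No paired analysis was possible because each group has 1 sample. Depth limits zp2l2 most: 2 reads in egg.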

Other observations

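Genes that supply the yolk or open the coat at hatching were also looked up. Of 11 listed vitellogenin and yolk uptake genes 9 were found and 8 compared. As deposited, 6 were at least 2-fold higher and 2 lower in sperm than in egg, against 61.3% and 14.3% of all genes. The yolk precursor gene vtg1, known for expression in the liver, had 298 in sperm against no egg read, so at least 50.1-fold higher taking 3 reads as the floor. The vitellogenin genes vtg5 and vtg6 had 15.9 and 14.9 in sperm and no read in egg. The cathepsin genes of yolk processing were lower in sperm: ctsla (listed as ctsl1a) had 16757 in sperm and 78233 in egg, and ctsba 16705 in sperm and 36443 in egg.

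Of 11 listed genes of chorion hatching 6 were found. The hatching enzyme genes he1a, he1b and he2, proteases that digest the chorion, had at most 4 reads in any of the 4 libraries. Only xbp1 and cd63, which act in many secretory cells, reached 10: xbp1 had 9255 in sperm, 484 in egg, 4126 in 1k-cell embryos and 9688 in germ ring embryos, and cd63 had 1496 in sperm and 87.3 in egg. In the list of other ZP-domain genes 3 of 17 were found, and of these tectb, a gene of the inner ear's tectorial membrane, had 100.3 in sperm, 7.94 in egg, 171 in 1k-cell embryos and 79.9 in germ ring embryos.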
